A study of Homo sapiens with 8 samples.

Results

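Regions of RNA from a study that immunoprecipitated eIF4G2 were examined for 6 genes that act on mRNA translation: CTIF, LARP4B, EIF3A, CPEB2, EIF4E and ABCE1. They were picked by name, and a region was assigned to a gene where it lay inside an annotated transcript of that gene or overlapped its start, its end or all of it. By this rule the 6 genes held 18 of the 3210 regions in the 2 deposited lists, and they were 6 of the 861 genes with a region in either list. The members were chosen with their place in the lists known, so which list holds which gene is given as a description, with no test.

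The RNA came from IHCF cells (immortalized human cardiac fibroblasts), infected with a lentiviral vector for eIF4G2 or with a scramble control vector, and both kinds of cells went through immunoprecipitation with an antibody against eIF4G2. The 8 libraries fell into 4 groups of 2: eIF4G2-bound RNA of overexpressing cells, eIF4G2-bound RNA of control cells, total RNA of overexpressing cells and total RNA of control cells. The values used here are 1 list of regions per condition, called the overexpression list (1986 regions) and the control list (1224 regions), with no value for any single library. The assignment of a list to a condition rests on the names of the tables, which also carry the name of MOV10, an RNA helicase that no sample label mentions. That the listed RNA was bound by eIF4G2 is therefore taken from the description of the samples and could not be checked.

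The lists hold positions and widths on GRCh38, and no read count, score or p-value, so marker levels of the fibroblast line could not be examined. Depth is unknown, the lists cannot be compared against the spread between replicates, and abundance of an mRNA cannot be told apart from its binding by eIF4G2. Absence from a list is not evidence that an mRNA went unbound. The lists were also confined almost wholly to a few chromosomes, and the 6 genes lie on 3 of them. In the overexpression list chromosome 18 had 1339 regions, chromosome 4 had 491 and chromosome 10 had 121. The control list had 1185 regions on chromosome 4, 29 on chromosome 10 and 0 on chromosome 18.

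As background, translation of most mRNAs begins when eIF4E binds the 5′ cap and eIF4G bridges it, through eIF3, to the small ribosomal subunit. eIF4G2 resembles the part of eIF4G that holds eIF3 and the helicase eIF4A but cannot bind eIF4E, so it is studied as a driver of translation that does without eIF4E. Proteins bound near the 3′ end of an mRNA also set its output, through the poly(A) tail and its binding proteins, and after termination the ribosome has to be split before it can start again. The 6 genes cover these steps: EIF4E binds the cap, CTIF acts as a scaffold on capped mRNAs, EIF3A belongs to the scaffold on the small subunit, LARP4B and CPEB2 bind 3′ sequences, and ABCE1 recycles ribosomes.

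The sequences around the annotated start of the mRNA are shown because initiation by EIF4E begins at the cap, and because none of the 18 regions covered the start of the longest transcript of its gene. RefSeq (GRCh38.p14) held a promoter entry for 4 of the 6 genes: EIF4E, LARP4B, CPEB2 and ABCE1. Each line gives 30 bases before the start in lower case and the first 10 transcribed bases in capitals, 5′ to 3′ on the strand of the gene. The windows lie at chr4:98929124-98929163 on the minus strand for EIF4E, chr10:931696-931735 on the minus strand for LARP4B, chr4:15002451-15002490 on the plus strand for CPEB2 and chr4:145098281-145098320 on the plus strand for ABCE1.
EIF4E: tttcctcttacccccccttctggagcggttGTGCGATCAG
LARP4B: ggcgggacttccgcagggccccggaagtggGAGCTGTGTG
CPEB2: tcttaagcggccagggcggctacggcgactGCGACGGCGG
ABCE1: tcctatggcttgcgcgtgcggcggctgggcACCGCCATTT

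No region of either list touched the 300-base window around these 4 starts. Of the listed protein-coding genes with such a window, 41 of 417 (9.83%) were covered there in the overexpression list, as were 40 of 327 (12.2%) in the control list. The windows differed in base composition. CPEB2 and LARP4B had 76.0% and 73.7% G and C, against a median of 62.7% over 15842 coding genes, while ABCE1 (59.7%) and EIF4E (50.7%) lay below that median. The first 10 transcribed bases held 7 C or T in ABCE1, 4 in EIF4E, 4 in LARP4B and 3 in CPEB2, against a median of 5. The annotated start may differ from the start used in these cells. For LARP4B, RefSeq extends the gene upstream to 988341, so the printed start lies inside the annotated gene.

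The overexpression list alone held CTIF, LARP4B, EIF3A and CPEB2, and the control list alone held EIF4E and ABCE1. Of all 20056 protein-coding genes, the overexpression list held 2.32% and the control list 1.81%. The split has to be read by chromosome: the overexpression list took in 60.0% of the 270 coding genes of chromosome 18 and the control list 0%, so CTIF could appear in the overexpression list alone. On chromosome 10, home of EIF3A and LARP4B, 9.13% of 734 coding genes were overexpression-listed and 4.09% control-listed. On chromosome 4, which carries CPEB2, EIF4E and ABCE1, the overexpression list held 27.3% of 770 and the control list 43.1%.

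Many other genes of these chromosomes were in 1 list alone. On chromosome 10, 53 of the 67 coding genes in the overexpression list (79.1%) were not in the control list. On chromosome 4, 25 of 210 genes of the overexpression list (11.9%) were absent from the control list, and CPEB2 was 1 of these 25. In the other direction 147 of 332 genes of the control list (44.3%) were absent from the overexpression list, among them EIF4E and ABCE1.

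**Figure D1:**
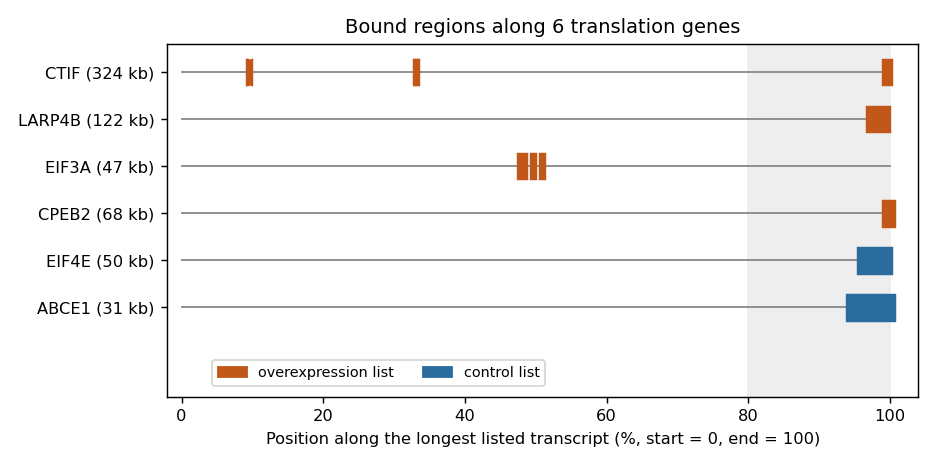
Regions along the longest listed transcript of each gene, with position in percent from the start (0) to the end (100). The length in brackets is the span of the transcript on the genome, introns included. Bars are regions, and their outlines make the narrowest ones look slightly wider than they are. 5 of the 6 genes have a region in the shaded last 20% of the transcript, and EIF3A has its 3 regions near the middle.

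The rule takes genes by name and by overlap with a transcript, not by position along it. Positions and transcript lengths are spans on the genome that include introns, so they are not places on the spliced mRNA. Earlier results of these data were known when the genes were chosen, so the positions too are given as a description. 5 of the 6 genes (CTIF, LARP4B, CPEB2, EIF4E and ABCE1) had 1 region centred in the last 20% of the longest transcript, and 4 of them had a region across its very end. A region across that end was listed for 41.9% of coding genes of the overexpression list and 44.1% of those of the control list. In the overexpression list this share was 56.8% on chromosome 18, 55.2% on chromosome 10 and 24.8% on chromosome 4. On chromosome 4 of the control list it was 45.5%. These 5 regions were centred at 97.2% to 99.8% of the transcript. The other 13 regions, 10 of CTIF and 3 of EIF3A, lay before the last 20%. By region, it held 3 of the 16 member regions of the overexpression list and 2 of the 2 of the control list. These counts by region, and not the count by gene, are the ones to set beside the shares of pairs that follow. For comparison, all region and gene pairs were counted if centred in the last 20% or beyond the transcript end. These were 44.0% of the pairs of the overexpression list and 47.1% of those of the control list. A region towards or past the 3′ end was therefore frequent in both lists.

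The 5 regions in the last 20% were 1290 to 4515 bp wide, with a median of 2455 bp, and the 13 others were 205 to 615 bp wide, with a median of 215 bp. All 13 narrow regions belong to CTIF or EIF3A, and each has another region of the same list within 421 bp. They are therefore not 13 separate observations, and how often widths part in this way over all regions was not computed. In the medians over all region and gene pairs, the last 20% again includes pairs centred beyond the transcript end. On chromosome 18, where 10 of the 13 narrow regions lie, these medians were 305 bp in the last 20% and 220 bp before it. On chromosome 10 of the overexpression list they were 1435 and 820 bp. On chromosome 4, where 3 of the 5 wide regions lie, they were closer, with 800 bp in the last 20% and 745 bp before it in the overexpression list, and 782.5 and 600 bp in the control list. On chromosome 10 of the control list both were 1230 bp.

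EIF4E, the cap-binding protein that eIF4G2 cannot contact, lies on the minus strand of chromosome 4 at 98879276 to 98929133 (ENSG00000151247, 49.9 kb). In the control list it had a single 2455 bp region, at chr4:98879146-98881600 in the authors' deposited table, and 0 in the overexpression list. The region covered the annotated ends of all 7 listed EIF4E transcripts and ran 130 bp beyond the last of them. The ends of 6 of these transcripts lie 1489 to 1734 bp short of the end of the longest, so the region took in both the short and the long form of the 3′ end. No other gene lay under it.

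The nearest region of the overexpression list was 435 kb away from the EIF4E region. Of the 1185 control regions of chromosome 4, 78 (6.58%) were farther from the overexpression list, and the median distance was 7.31 kb. Both flanking coding genes had regions in the control list alone: METAP1, an aminopeptidase that removes the initiator methionine from new proteins, with 1 region (1290 bp), and the tetraspanin gene TSPAN5 with 3 (1520 bp). Within 1 Mb on either side of EIF4E, the overexpression list held 1 of 18 coding genes and the control list 6, and RAP1GDS1 was in both.

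CTIF works in place of eIF4G on mRNAs whose cap is still held by the nuclear cap-binding complex, and carries a domain related to that of the eIF4G proteins. It lies on the plus strand of chromosome 18 at 48539031 to 48863217 (ENSG00000134030, 324 kb). It had 11 regions in the overexpression list, which summed to 7425 bp, and 0 in the control list. By summed length it ranked at place 21 among the 162 listed coding genes of chromosome 18, and by its widest region at place 4.

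The 11 CTIF regions formed 3 groups. The group nearest the start held 5 regions of 205 to 215 bp between 48568601 and 48571060, centred at 9.15% to 9.85% of the transcript. After a gap of 74.0 kb, 5 regions of 205 to 615 bp followed between 48645066 and 48647620, at 32.8% to 33.4%. After another 212 kb came 1 region of 4515 bp at chr18:48859396-48863910, which held 60.8% of the summed length, covered the ends of 5 transcripts, 2 of which lie wholly inside it, and ran 693 bp beyond the longest. No other gene lay under any of the 11 regions. All 10 regions of the upstream groups lay inside 6 or 7 of the 10 listed transcripts and covered no transcript end.

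**Figure D2:**
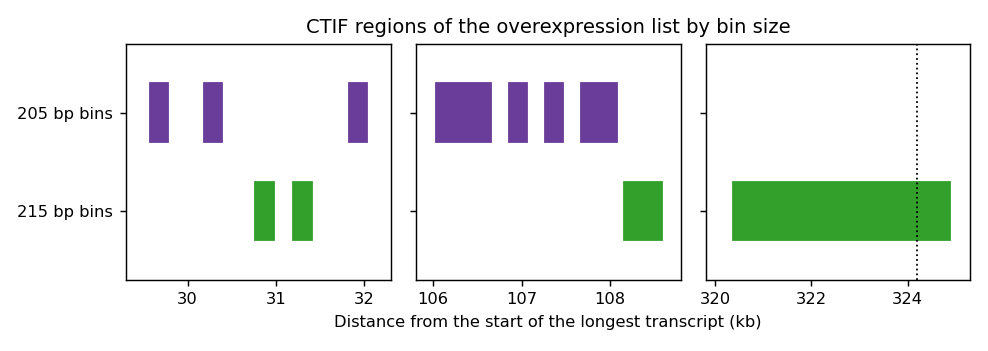
The 3 groups of CTIF regions in the overexpression list, by distance from the start of the longest transcript (kb) and by the bin size that the region's ends fit; the dotted line is the transcript end. The upstream groups hold narrow regions on both bin sizes, and the 4515 bp region at the end fits 215 bp bins.

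Regions in the lists begin and end on fixed grids of bins. On chromosome 18 the ends of regions fell on multiples of 205 or 215 bp, on chromosome 10 on multiples of 205 bp and on chromosome 4 on multiples of 200 or 215 bp. Of the 11 CTIF regions 7 were a single bin wide, against 651 of all 1339 regions of chromosome 18 (48.6%). In the group nearest the start 3 regions fitted the 205 bp grid and 2 the 215 bp grid, in the next group 4 and 1, and the wide region at the end filled 21 bins of 215 bp. EIF4E was the only member whose region began on 1 grid (215 bp) and ended on the other (200 bp). Of control regions on chromosome 4, 26.7% began and ended on different grids, in whichever order. The sources used here do not say what the bin sizes stand for.

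The coding gene next to CTIF on the far side of its end is SMAD7, an inhibitor of TGF-beta signalling, 56.6 kb away, with 3 regions (1660 bp) in the overexpression list. ZBTB7C, on the other side, had 0 regions in either list. Within 1 Mb, 8 of 10 coding genes were in the overexpression list, beside the 60.0% of the chromosome. The 8 include RPL17, C18orf32 and the joint entry RPL17-C18orf32, which are not separate observations. RPL17 and the joint entry both had a widest region of 6520 bp.

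EIF3A, the largest subunit of the eIF3 complex, lies on the minus strand of chromosome 10 at 119033670 to 119080817 (ENSG00000107581, 47.1 kb). It differed from the other members in position: its 3 regions, of 410, 410 and 615 bp in genome order, lay in the middle of the gene, centred at 48.1% to 50.9% of the longest transcript. They lie between 119056621 and 119058465, each starting 206 bp after the end of the last, all on 205 bp bins and under no other gene. This stretch overlaps the later part of a short EIF3A transcript that spans 3015 bp of the genome (ENST00000462527, 119056876 to 119059890) and runs beyond its end. The region nearest the gene's end covers the end of that transcript, and the other regions lie inside it at 57.5% and 81.3% of its length.

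By summed length (1435 bp) EIF3A shared place 50 of the 67 listed coding genes of chromosome 10 with 11 others, and by its widest region it was at place 66. Neither flanking coding gene, NANOS1 and DENND10, had a region. Within 1 Mb, 1 of 15 coding genes was in the overexpression list (TIAL1, an RNA-binding protein that can repress translation) and 1 in the control list (the co-chaperone gene BAG3). The nearest control region was 619 to 620 kb from the EIF3A regions, and about as many of the 121 overexpression regions of the chromosome lay farther from the control list (59 or 60) as lay nearer.

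LARP4B, a La-related protein that binds 3′ sequences and poly(A)-binding protein and favours translation, had 1 region of 4100 bp in the overexpression list, at chr10:809546-813645 in the authors' deposited table, and 0 in the control list. The gene is on the minus strand of chromosome 10 at 806914 to 988341 (ENSG00000107929, 181 kb). The region stopped 49 bp short of the end of the longest listed transcript (122209 bp on the genome). It covered the ends of 2 shorter ones and filled 20 bins of 205 bp. A further transcript ends 2583 bp beyond the longest, outside the region. No other gene lay under it.

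The LARP4B region was wide and stood alone. It was at place 4 of 67 by widest region and at place 12 by summed length. The nearest other region of the overexpression list was 2324 kb away and the nearest control region 12832 kb, the farthest of all 121 overexpression regions on chromosome 10. None of the 11 other coding genes within 1 Mb had a region in either list. That includes GTPBP4, a ribosome assembly factor whose gene starts 0.093 kb from LARP4B, and DIP2C.

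CPEB2, which binds the cytoplasmic polyadenylation signal in 3′ sequences and controls translation from there, is on the plus strand of chromosome 4 at 15002481 to 15070151 (ENSG00000137449, 67.7 kb). It had 1 region of 1290 bp in the overexpression list, at chr4:15069351-15070640 in the authors' deposited table, and 0 in the control list. The region covered the ends of 4 of the 5 listed transcripts, which lie within 2 bp of each other. It ran 489 bp beyond the longest, so that 803 bp lay within the gene. It also lay inside C1QTNF7-AS1, a transcript of the minus strand. The regions have no strand, so it cannot be assigned to 1 of these genes.

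CPEB2 lay far from the control list. The nearest control region was 441 kb away, and 3 of the 491 overexpression regions of chromosome 4 (0.611%) were farther, while 319 (65.0%) overlapped a control region. CPEB2 has no control region, so this rank follows in part from the choice of the gene. By summed length it shared place 127 of 210 listed coding genes with 1 other. Within 1 Mb, FBXL5 and FAM200B had regions in both lists, and BST1 and CC2D2A in the control list alone, among 9 coding genes.

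ABCE1, the ATPase that splits ribosomes after termination, is on the plus strand of chromosome 4 at 145098311 to 145129524 (ENSG00000164163, 31.2 kb). In the control list it had a single 2150 bp region, at chr4:145127581-145129730 in the authors' deposited table, and 0 in the overexpression list. The region filled 10 bins of 215 bp, covered the ends of both listed transcripts and ran 206 bp past the longer.

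The ABCE1 region also lies inside the longest listed transcript of OTUD4, a deubiquitinase gene on the minus strand, centred at 74.1% of its length. In RefSeq OTUD4 lies 4.13 kb from ABCE1, so the shared assignment rests on the listed transcripts. OTUD4 had 4 regions in the control list, of 2150, 215, 860 and 1760 bp, and 0 in the overexpression list, and the widest of them is the region shared with ABCE1. Regions 215 and 860 bp wide lie 4077 and 4507 bp beyond the end of ABCE1. They were only nearest to ABCE1, so the rule left them out. Without strand the shared region cannot be given to ABCE1 or OTUD4. The nearest overexpression region was 428 kb away, and 79 of 1185 control regions (6.67%) were farther. Of the 8 coding genes within 1 Mb, the overexpression list held 4 (C4orf51, HHIP, SMAD1 and ZNF827). The control list held 6, these 4 with MMAA and OTUD4.

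**Figure D3:**
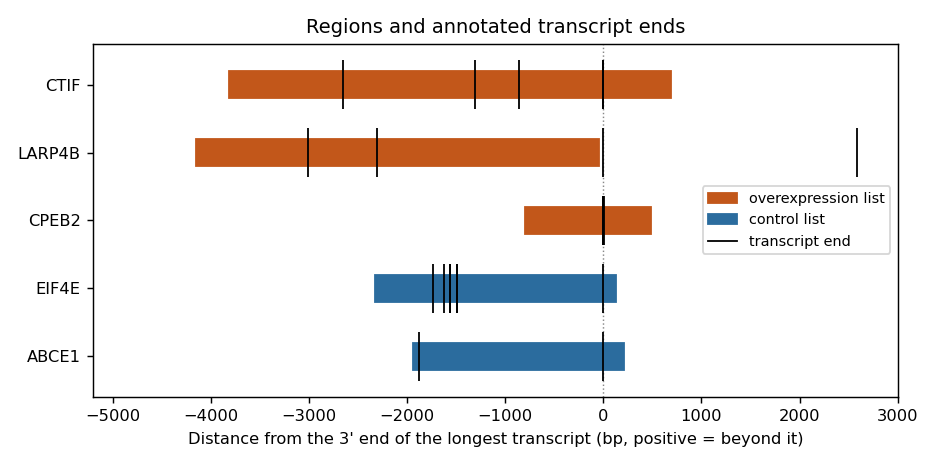
The region at the 3′ end of each of 5 genes, drawn against the end of the longest transcript (0, in bp, positive beyond it), with black ticks at annotated transcript ends. The EIF4E region spans the ends of all 7 transcripts, and the LARP4B region stops 49 bp short of the end of the longest.

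None of the 18 regions overlapped a region of the other list. On chromosome 4, 65.0% of overexpression regions and 25.5% of control regions did, on chromosome 10 the overexpression share was 9.92%, and on chromosome 18 it could only be 0%. Since every member has regions in 1 list alone, the count of 0 follows largely from the choice of genes. The same holds in part for the distances of member regions to the other list and for their ranks, which run over overlapping regions too.

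**Figure D4:**
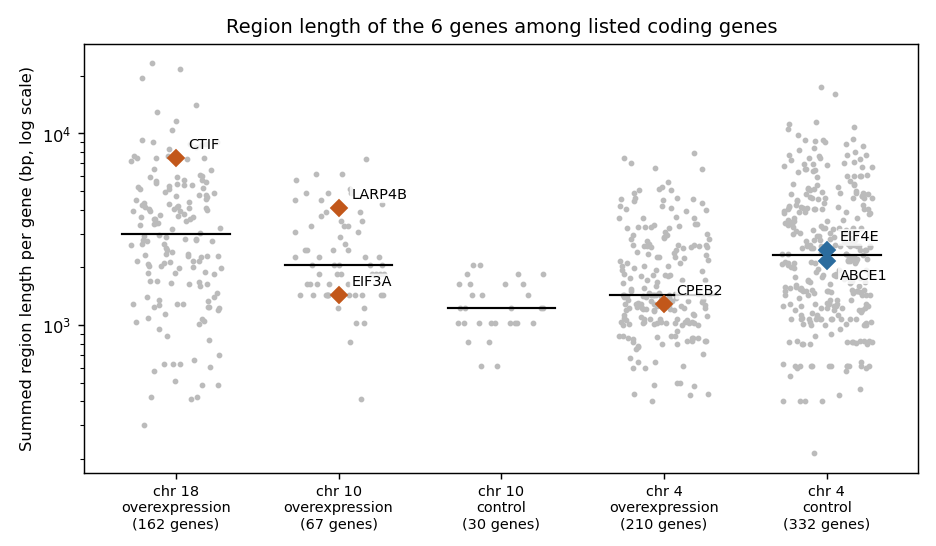
Summed region length per gene (bp, log scale) for all listed coding genes of chromosomes 18, 10 and 4 by list (grey points), with the median as a black line and the 6 genes as coloured diamonds. CTIF and LARP4B lie above the median of their chromosome, EIF3A and CPEB2 below it, and EIF4E and ABCE1 on either side of it.

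Against the coding genes of the same chromosome and list, CTIF and LARP4B had long summed regions and the other members lay near or below the median. CTIF (7425 bp) compared with a median of 2982.5 bp on chromosome 18, and LARP4B (4100 bp) and EIF3A (1435 bp) with 2050 bp on chromosome 10. CPEB2 (1290 bp) compared with 1430 bp in the overexpression list of chromosome 4. EIF4E (2455 bp) and ABCE1 (2150 bp) stood on either side of 2330 bp in the control list of that chromosome. CTIF had 11 regions where the median listed gene of chromosome 18 had 5. These lengths grow with the number of bins called and are not a measure of how much RNA was bound.

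Genes most like each member were sought among coding genes of the same chromosome with the same number of regions in each list, by nearest summed length in the list of the member. For EIF4E (51 candidates) they were MSANTD1 (2365 bp, a region that also lies over HTT) and FGFRL1 (2580 bp), and for ABCE1 CLGN (1995 bp) and again MSANTD1. For CPEB2 (14 candidates) they were ARHGEF38 (1295 bp, also over INTS12) and FAM53A (1340 bp). LARP4B (28 candidates) was nearest to FBXL15 (4305 bp, also over CUEDC2 and PSD) and ATP5F1C (3485 bp). EIF3A (6 candidates) was nearest to LCOR and TUBGCP2, both with 1640 bp, and CTIF (6 candidates) to MBD1 (5595 bp) and MTCL1 (5325 bp). In the last 20% of the transcript LCOR had 0 of its 3 regions, as EIF3A did, and TUBGCP2 had all 3.

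The wider translation machinery was represented by 130 genes in 7 lists, the members among them. Of these genes the overexpression list held 7 and the control list 6, with 2 in both, and 119 had none. These counts include the members, which were picked as listed genes. With the members left out, the overexpression list held 3 of 124 (2.42%) and the control list 4 (3.23%), beside 2.32% and 1.81% of all coding genes. All 11 with a region lie on chromosomes 4 and 10, or, for CTIF, on 18. The 112 genes on other chromosomes had 0 regions in either list, which includes EIF4G2 itself, so these tables offer no check on the overexpressed gene. Neither the 23 genes of start codon selection and subunit joining nor the 12 elongation genes had a region. Of the 13 eIF3 genes EIF3A alone had one, of the 22 genes of cap recognition EIF4E and CTIF, and of the 12 genes of termination and recycling ABCE1. Of 30 regulators acting through untranslated regions, the overexpression list held 3, LARP4B and CPEB2 among them, and the control list 2. Of 18 deadenylation genes 2 were in both lists. The start codon genes, the elongation genes except EIF5AL1 and the eIF3 genes except EIF3A all lie on other chromosomes. Their lack of regions cannot be told apart from their place in the genome.

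Among the 5 translation genes of chromosome 4 that are not members, the overexpression list held 2 and the control list 4, beside 27.3% (overexpression list) and 43.1% (control list) of all coding genes there. CNOT6L, a deadenylase of the CCR4-NOT complex, had 1 region (1075 bp) in the overexpression list, against 5 of 215 to 1145 bp in the control list, all at 94.3% to 99.6% of the transcript. The deadenylase-related gene NOCT had 1 region in each list, 2400 bp in the overexpression list and 1290 bp in the control list, which overlap each other and also lie over ELF2. LARP1B, a La-related protein, had 3 regions in the control list alone (1060, 1435 and 625 bp), centred at 0.636%, 31.4% and 99.8% of the transcript. SLBP, which binds the stem-loop at the end of histone mRNAs, had 2 in the control list alone (860 and 800 bp), near the end of the gene. PABPC4L had none.

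On chromosome 10 the 6 translation genes that are not members included 1 with a region, CELF2, an RNA-binding protein that regulates splicing and mRNA stability, with 1435 bp across the end of its longest transcript in the overexpression list. CPEB3, the relative of CPEB2, had none, nor did the eIF4E inhibitor gene EIF4EBP2, the eIF4A inhibitor gene PDCD4, the decay factor gene UPF2 or EIF5AL1. With 9.13% (overexpression list) and 4.09% (control list) of coding genes of this chromosome listed, their absence does not set them apart. On chromosome 18 CELF4 had no region. LARP1B and LARP4B therefore stood in different lists and on different chromosomes, and their difference cannot be told apart from that between the chromosomes.

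**Figure D5:**
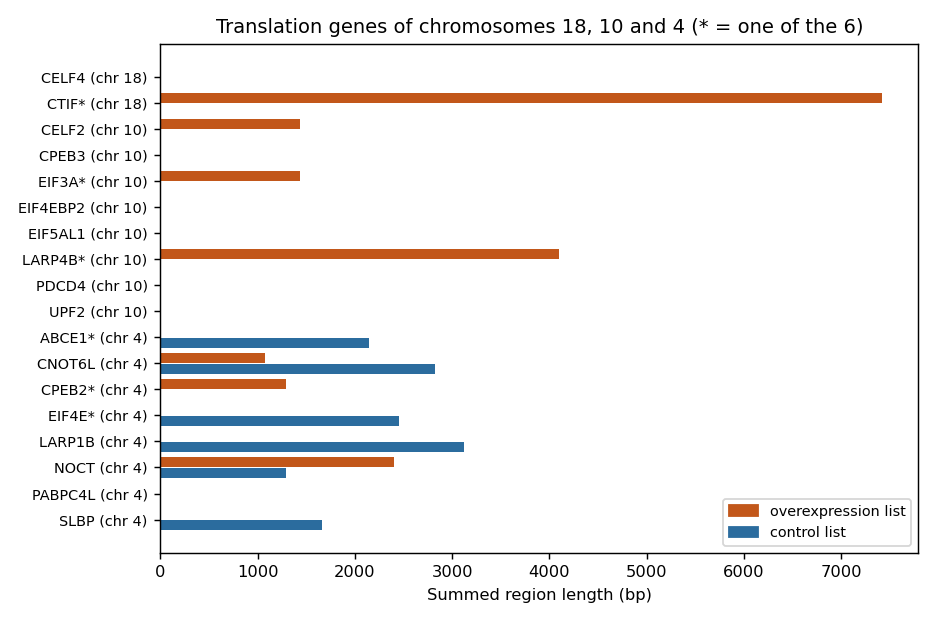
Summed region length (bp) of the 18 translation genes on chromosomes 18, 10 and 4 in the overexpression list (upper bar) and the control list (lower bar); genes with no bar had no region. CNOT6L and NOCT are the genes with a bar in both lists.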

How the data were processed

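Bound RNA and total RNA of IHCF cells were sequenced after DNA removal and poly(A) selection, per the labels. Per the submitters' processing notes, HISAT2 2.1.0 was used with the GRCh38 build, besides Trimmomatic 0.36 and bcl2fastq 2.19.0. How regions were called, and whether replicates were pooled, is not given in the sources used here. Per condition the authors deposited 1 table of other values only, namely region and transcript positions, widths and distances in bp, per the file headers.

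Members and lists were chosen with earlier results of these data known. Named genes were the members, genes under their regions, translation genes with a region and the 2 nearest genes per member. Translation genes without a region on chromosomes 4, 10 and 18, the coding genes flanking a member and listed genes within 1 Mb of it lie outside this rule and were named after their values were seen. Positions refer to the middle of a region along the longest listed transcript, measured on the genome from its start to its end with introns included. Whether a region lies in an exon or an intron was not examined. Regions were called overlapping from 1 bp. Gene names were matched to RefSeq GRCh38.p14 by symbol, synonym or Ensembl identifier. The overlap and position steps were tested on simulated data. Work was done in Python 3.11.15 with pandas 2.3.3, numpy 2.4.6 and matplotlib 3.10.9.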

Additional observations from a re-analysis of the deposited data

How the results depend on the processing

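Without regions that lie over more than 1 gene, ABCE1 left the control list, which then held 1 member gene and 1 member region in place of 2 and 2, and CPEB2 left the overexpression list. Merging regions up to 1000 bp apart reduced the 16 member regions of the overexpression list to 6, and keeping regions of at least 400 bp reduced them to 9, with all 4 genes still present. The other 20 recomputed counts stayed within 1.5 times, among them the 0 overlaps between lists with overlap of at least 50% of the shorter region and the 3 and 2 regions in the last 20% of the transcript. Of the 12 recomputed lengths 3 moved by more: CPEB2 had 803 bp within its gene, and the widest regions of CTIF and EIF3A alone had 4515 and 615 bp. No paired analysis was possible because the lists hold no value per replicate. Depth is unknown, so no interval could be given.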
